A study of Mus musculus with 6 samples.

Results

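Of the 17428 genes measured in EpH4 cells, 46 were higher in TGFβ1-treated than in untreated cells and were still high 4 days after TGFβ1 had been taken away. EpH4 is a near-normal mouse mammary epithelial cell line, and all 6 libraries come from this 1 line. E cells were untreated, M cells had been cultured with TGFβ1 for 7 days, and RE cells had 7 days of TGFβ1 followed by 4 days in normal medium, with 2 biological replicates sequenced per state. The labels name no engineered allele, and all groups grew in medium with serum and insulin. They give no time in culture for E cells, so treatment and time in culture cannot be told apart. The 46 genes were picked by their own values in these libraries. For each gene the deposited value, read here as sequenced bases (coverage), was expressed in ppm, a share of the library total. The lowest of the 4 M and RE values had to be at least 3 times the higher E value and at least 1 ppm, and the RE mean divided by the M mean (RE/M) had to lie between 0.5 and 2. The levels below therefore describe the genes that this choice returned and are not a test of it.

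TGFβ1 is a secreted cytokine that signals through a pair of receptor kinases to the Smad transcription factors. In epithelial cells it can drive an epithelial-mesenchymal transition (EMT), in which cells loosen their junctions, switch on transcription factors of the Snail, Zeb and Twist families, and deposit a fibrous extracellular matrix. When the cytokine is removed, many of these changes reverse, a process called the mesenchymal-epithelial transition (MET). In mammary tissue, the fibrillar collagens and the proteins that organise them are made mostly by fibroblasts of the stroma.

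The comparison of E, M and RE cells asks how far the transcriptome returns once TGFβ1 has gone, and the 46 genes are a small share of those that went up. In M cells, 315 genes (1.81% of the table) were at least 3 times above the higher E value and at least 1 ppm in both libraries. In RE cells, 220 genes met the same bounds, and 60 genes did so in both states. Of those 60 genes, 46 had RE/M between 0.5 and 2, 11 had RE/M below 0.5, and 3 had RE/M above 2. The 46 genes are thus 14.6% of the genes raised in M cells. Of the 315 genes, 71 (22.5%) had neither RE value above the higher E value. Another 154 had both RE values above it, but at least 1 RE value was under 3 times the higher E value or under 1 ppm. The number of genes chosen depended on the second E library: without it, 116 genes met the rule, among them all 46.

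The chosen genes were low in E cells and high in the other 2 states. Their median ratio of M to E means was 7.27, with a range of 3.64 to 71.8 (Adamts12, at the floor in E cells, counted at its lower bound), and their median ratio of RE to E means was also 7.27, with a range of 4.06 to 50.8. Summed over the 46 genes, coverage was 637 and 646 ppm in the E libraries, 5001 and 5401 ppm in the M libraries, and 5171 and 4283 ppm in the RE libraries. Postn, which encodes the matricellular protein periostin, made up 37.5% and 39.8% of the sum in M cells and 29.95% and 22.8% in RE cells. The E libraries agreed less well than the others. The median fold between the E libraries was 1.37 for the 46 genes and 1.27 for the 11791 tested genes with a mean of at least 1 ppm, against 1.16 and 1.07 between the M libraries and 1.14 and 1.08 between the RE libraries. Of the 46 genes, 30 were higher in the second E library, where 42.4% of those tested genes were.

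**Figure D1:**
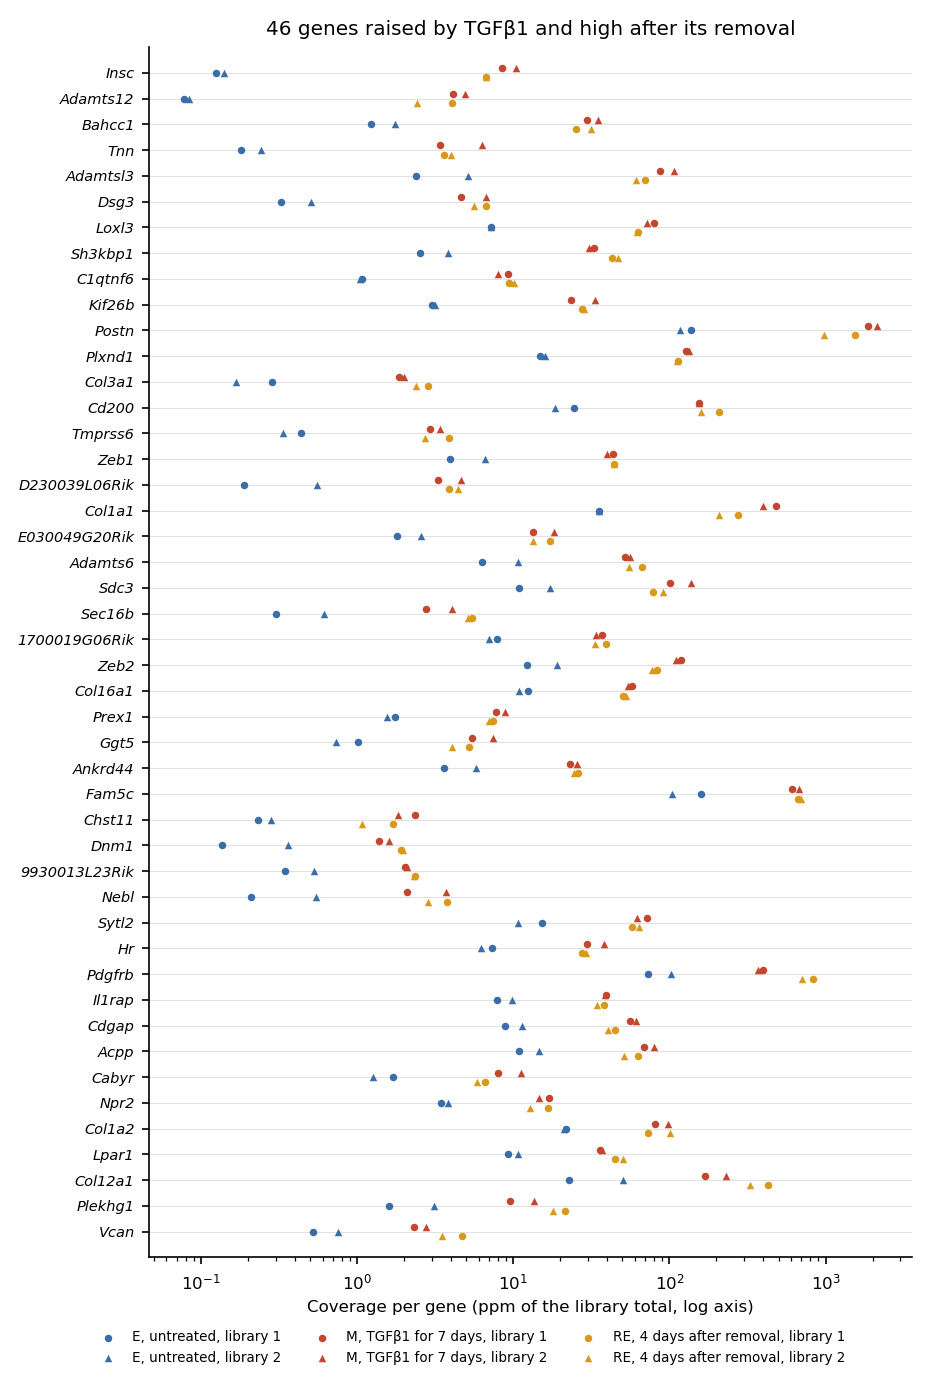
Coverage of each of the 46 genes (ppm of the library total, log axis), with 1 point per library; blue marks E, red M and orange RE cells, circles the first and triangles the second library, and values under 3 reads' worth are drawn at that floor. Genes run from Insc, with its lowest M or RE value 47.9 times the higher E value, to Vcan, with 3.05 times, and every red and orange point lies to the right of the blue ones, as the choice requires.

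A test fitted over the whole table with limma, on log2(TMM-normalised coverage in ppm + 0.1), called genes whose log2 fold change exceeded 1 up or down with a Benjamini-Hochberg adjusted p below 0.01. All 46 genes were among the 13893 genes tested. All 46 were called higher in M than in E cells, where 8.41% of tested genes were (8.35% were lower), and all 46 were called higher in RE than in E cells, where 5.92% were (3.16% were lower). The rule used both contrasts, so nothing is read from these counts. Between M and RE cells, only Col1a1 was called, as lower in RE cells, where 4.79% of tested genes were called lower, and 0 of the 46 were called higher, where 7.92% were. Nothing is read from these counts either, because the rule bounded RE/M.

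The promoters shown here belong to the genes with some of the largest steps above E, together with Postn, the gene with the highest level per kilobase. They are the 250 bases before the annotated start in RefSeq (assembly GRCm38.p6, all on the plus strand), written 5′ to 3′. Capitals mark the motifs searched on both strands: CAGAC (a Smad binding element), TGANTCA (AP-1), GGAATG (TEAD), CACCTG (the E-box bound by Snail and Zeb proteins) and TGTGGT (Runx). Postn has 2 annotated starts, and both windows are shown.
Insc, chr7:114745516-114745765: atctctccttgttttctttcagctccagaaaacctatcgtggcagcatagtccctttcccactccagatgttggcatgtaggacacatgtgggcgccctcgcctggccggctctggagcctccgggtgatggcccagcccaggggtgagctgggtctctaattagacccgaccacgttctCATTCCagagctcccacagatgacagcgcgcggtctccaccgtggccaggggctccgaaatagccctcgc
Bahcc1, chr11:120232697-120232946: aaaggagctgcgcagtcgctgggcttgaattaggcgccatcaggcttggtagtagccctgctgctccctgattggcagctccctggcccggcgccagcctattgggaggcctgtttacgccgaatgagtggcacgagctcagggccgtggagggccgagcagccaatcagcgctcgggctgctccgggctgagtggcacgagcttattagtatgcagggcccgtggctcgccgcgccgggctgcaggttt
Adamtsl3, chr7:82335444-82335693: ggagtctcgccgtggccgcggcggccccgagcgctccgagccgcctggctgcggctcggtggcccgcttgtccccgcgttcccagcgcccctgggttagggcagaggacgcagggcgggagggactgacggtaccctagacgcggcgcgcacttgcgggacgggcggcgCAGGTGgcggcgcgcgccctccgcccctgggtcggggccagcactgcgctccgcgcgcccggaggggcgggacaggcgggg
Postn upstream start, chr3:54359017-54359266: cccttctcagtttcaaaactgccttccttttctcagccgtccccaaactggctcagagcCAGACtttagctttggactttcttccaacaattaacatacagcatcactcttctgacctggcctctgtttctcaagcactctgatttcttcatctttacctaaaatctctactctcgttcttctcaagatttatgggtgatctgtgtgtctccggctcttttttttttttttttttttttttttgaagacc
Postn downstream start, chr3:54360857-54361106: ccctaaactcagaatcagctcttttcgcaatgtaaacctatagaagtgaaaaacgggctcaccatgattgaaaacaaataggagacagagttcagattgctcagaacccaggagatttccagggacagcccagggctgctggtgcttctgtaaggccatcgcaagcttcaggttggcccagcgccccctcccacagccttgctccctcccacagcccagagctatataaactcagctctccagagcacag

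These 5 windows share no motif. That of Insc holds GGAATG, read on the other strand, 70 bases before the start. That of Adamtsl3 holds CACCTG on the other strand, 81 bases before the start, and the upstream window of Postn holds CAGAC 191 bases before it. The windows of Bahcc1 and of the downstream Postn start hold none of these motifs. RefSeq promoters were matched for 32 of the 46 symbols, which come from 31 genes with 47 windows. CAGAC was found in 38.3% of these windows and in 42.2% of all 32851 windows. GGAATG was found in 21.3% of them, or 10 windows of 9 genes, against 12.6% of all windows. For TGANTCA the shares were 6.38% and 6.75%, for CACCTG 14.9% and 17.2%, and for TGTGGT 10.6% and 14.0%. In the 13136 windows of tested genes, CAGAC was found in 40.8%, GGAATG in 11.14% and TGANTCA in 4.96%. CACCTG was found there in 16.05% and TGTGGT in 11.08%. The TGANTCA share of the 47 windows, which rests on 3 windows, was thus below that of all windows and above that of tested genes. The double Smad motif, AGACAGAC or GTCTAGAC, which overlaps CAGAC where it is AGACAGAC, was in 0 of the 47 windows and in 1.71% of all windows. A CArG box was in 1 window of Nebl and in 1.47% of all windows. Median GC content was 57.6% in the 47 windows and 59.6% in the windows of tested genes. The transcripts of the 46 genes were long, with a median of 5607 bases for the 45 that were matched, against 3351 bases for the tested genes.

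Of the 46 genes, 13 were in 7 lists of extracellular matrix genes and their enzymes, which held 175 (1.26%) of the 13893 genes tested; the lists were drawn up with earlier results known, and no test was made of this share. Col1a1 and Col1a2 encode the chains of type I collagen, the main fibre of connective tissue. Col1a1 was at 35.3 and 35.2 ppm in E cells, 484 and 399 ppm in M cells, and 276 and 208 ppm in RE cells. It had the lowest RE/M of the 46 genes, 0.55, and both RE libraries were below both M libraries. Col1a2 was at 21.8 and 21.0 ppm in E cells, 81.4 and 98.0 ppm in M cells, and 73.1 and 101 ppm in RE cells. Its RE values overlapped its M values and its RE/M was 0.97, and whether the pair of chains differ in RE/M was not tested. Col12a1, a collagen that sits on the surface of fibrils, was at 22.7 and 50.6 ppm in E cells, 168 and 231 ppm in M cells, and 431 and 327 ppm in RE cells. It was higher after removal than under TGFβ1 in both libraries, with RE/M of 1.90. Col16a1, another fibril-associated collagen, was at 12.5 and 11.0, 57.7 and 54.0, and 50.3 and 52.4 ppm in the same order. Col3a1, the chain of type III collagen, was scarce, with 0.285 and 0.168 ppm in E, 1.84 and 1.98 ppm in M, and 2.86 and 2.38 ppm in RE cells. Per kilobase of transcript, mean levels over M and RE cells ran from 57.6 ppm for Col1a1 and 25.1 ppm for Col12a1 through 16.5 ppm for Col1a2 and 10.3 ppm for Col16a1 to 0.407 ppm for Col3a1.

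The other 24 collagen chains tested included many that moved another way. Among them, 12 were called higher and 6 lower in M than in E cells, 6 higher and 2 lower in RE than in E cells, and 5 higher and 10 lower in RE than in M cells, and 4 were called higher than E in both states. Their median log2 fold changes were 0.87, 0.82 and -0.73, against -0.00, -0.00 and -0.02 over all tested genes. Col5a3 was at 0.259 and 0.448 ppm in E cells, 107 and 108 ppm in M cells, and 1.02 and 1.14 ppm in RE cells, a log2 fold change between M and RE cells of -6.72 ± 0.25 (SE). Col27a1 followed the same course, at 0.384 and 0.112, 47.7 and 59.8, and 1.27 and 1.26 ppm. Col6a1, a chain of microfibrillar type VI collagen, fell under TGFβ1 and then rose above E, at 150 and 151, 21.9 and 17.5, and 612 and 450 ppm. These calls are from limma with Benjamini-Hochberg adjustment.

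Postn carried the highest level of the group. It was at 138 and 118 ppm in E cells, 1875 and 2147 ppm in M cells, and 1549 and 975 ppm in RE cells, so that RE cells kept 0.63 of the M level with a wide gap between their libraries. Both RE values were below both M values and at least 7.08 times the higher E value. Tnn, a tenascin of the same matricellular class, was at 0.181 and 0.243, 3.42 and 6.31, and 3.62 and 3.99 ppm. Its relative Tnc was at 65.6 and 123.2 ppm in E, 11354 and 12185 ppm in M, and 228 and 272 ppm in RE cells, a log2 fold change between M and RE cells of -5.77. Of the 20 other matricellular genes tested, 11 were called higher and 4 lower in M than in E cells, 8 higher and 4 lower in RE than in E cells, and 6 were called higher in both. Ecm1, a secreted matrix glycoprotein that did not meet the rule, was one of these, at 65.5 and 50.2, 150 and 170, and 254 and 296 ppm.

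Genes that modify or cut the matrix were also present. Loxl3, a lysyl oxidase that crosslinks collagen and elastin, was at 7.16 and 7.23 ppm in E cells, 79.6 and 72.1 ppm in M cells, and 63.0 and 61.6 ppm in RE cells. The replicates of each state lay close together, and RE cells were slightly below M cells in both libraries. Of the 17 other crosslinking and hydroxylation genes tested, 8 were called higher and 1 lower in M than in E cells, 3 higher and 0 lower in RE than in E cells, and 1 was called higher in both. That gene was Lepre1, a collagen prolyl hydroxylase, at 13.2 and 11.3, 30.6 and 27.5, and 36.0 and 33.4 ppm. Adamtsl3, a secreted ADAMTS-like protein without a protease domain, was at 2.38 and 5.11, 87.5 and 107, and 70.2 and 61.4 ppm. Emilin1, a glycoprotein of elastic fibres that did not meet the rule, was at 0.607 and 0.503, 1.76 and 2.70, and 4.58 and 4.78 ppm. The secreted metalloproteinases Adamts12 and Adamts6 both stayed high. Adamts12 was at the floor of 3 reads' worth in both E libraries, 4.14 and 4.91 ppm in M cells, and 4.06 and 2.43 ppm in RE cells, at least 56.02-fold and 40.2-fold higher. Adamts6 was at 6.35 and 10.7, 52.3 and 56.2, and 66.99 and 55.4 ppm. Of 44 other tested genes of the MMP, ADAM, ADAMTS and TIMP families, 14 were called higher and 2 lower in M than in E cells, 7 higher and 1 lower in RE than in E cells, and 2 higher in both. Mmp9, a gelatinase, reached 841 and 787 ppm in M cells and returned to 1.28 and 2.04 ppm in RE cells, against 1.58 and 1.87 ppm in E cells.

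Proteoglycan and hyaluronan genes made a smaller set. Sdc3, a heparan sulfate proteoglycan of the cell surface, was at 10.8 and 17.1 ppm in E, 101 and 138 ppm in M, and 78.4 and 90.4 ppm in RE cells. Vcan, a large chondroitin sulfate proteoglycan, was at 0.518 and 0.755, 2.30 and 2.77, and 4.68 and 3.51 ppm, higher in RE than in M cells in both libraries. Chst11, which sulfates chondroitin, was at 0.233 and 0.279, 2.36 and 1.83, and 1.70 and 1.07 ppm. The gene listed as 9930013L23Rik, named Cemip in RefSeq and involved in hyaluronan breakdown, was at 0.343 and 0.527, 2.02 and 2.09, and 2.35 and 2.31 ppm. Of 22 other proteoglycan and hyaluronan genes tested, 5 were called higher and 5 lower in M than in E cells, 8 higher and 1 lower in RE than in E cells, and 2 higher in both.

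**Figure D2:**
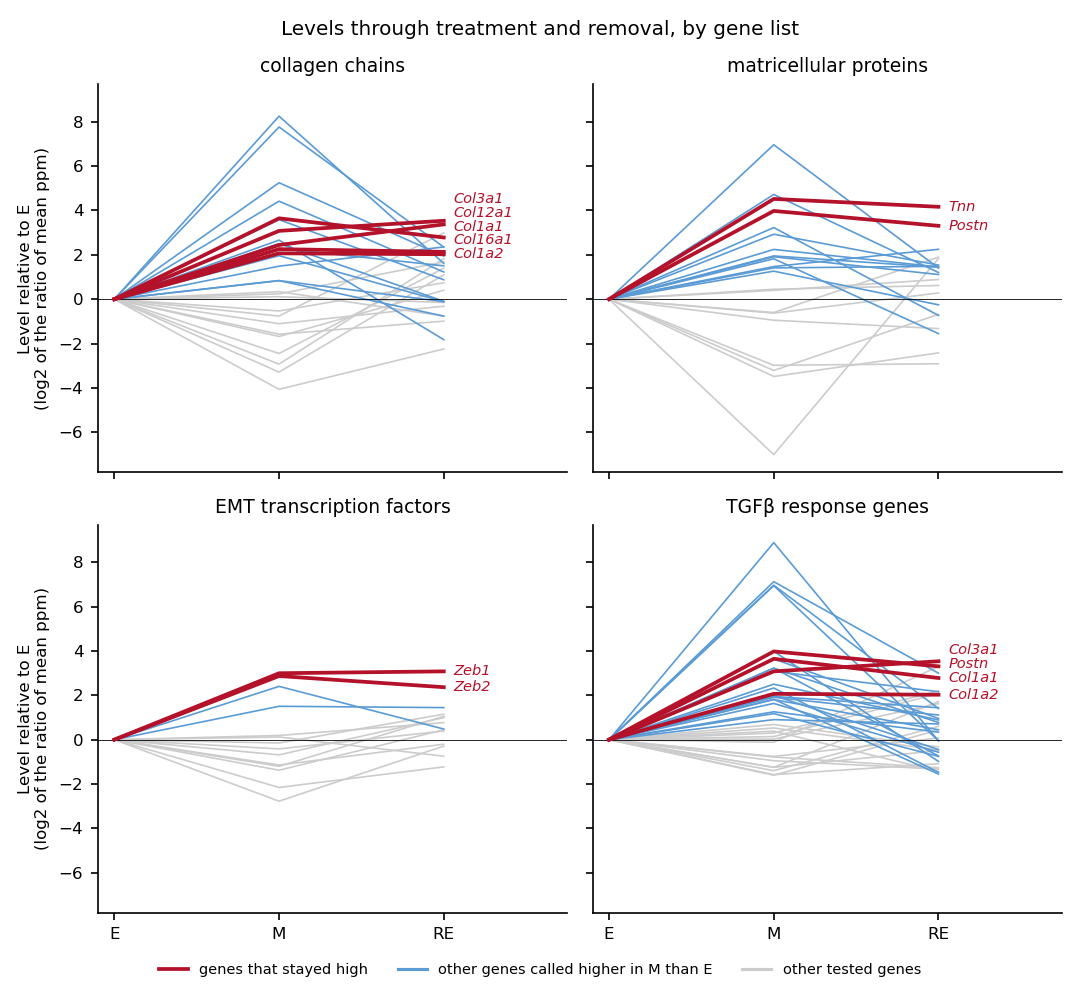
Mean level of each tested gene of 4 gene lists in E, M and RE cells, as the log2 ratio of mean ppm to the E mean with values under 3 reads' worth set to that floor; red lines are genes that stayed high, blue lines other genes called higher in M than in E cells by limma, and grey lines the remaining tested genes. Blue lines such as those of Col5a3 (107 and 108 ppm in M, 1.02 and 1.14 ppm in RE cells) fall steeply between M and RE, while the red lines stay near their M level because the rule selected them to do so.

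Zeb1 and Zeb2, zinc finger repressors of E-cadherin and other junction genes, were the EMT transcription factors among the 46 genes. Zeb1 was at 3.94 and 6.56 ppm in E cells, 43.7 and 40.0 ppm in M cells, and 44.4 and 44.3 ppm in RE cells. Its RE values were above its M values on library totals, with RE/M of 1.06, and below them after TMM or median-of-ratios scaling. Zeb2 was at 12.2 and 19.0 ppm in E cells, 118 and 110 ppm in M cells, and 83.5 and 77.2 ppm in RE cells. It was lower in RE than in M cells in both libraries, with RE/M of 0.71, while still at least 4.06 times the higher E value. Among the 12 other EMT transcription factors tested, 2 were called higher and 3 lower in M than in E cells, 4 were called higher in RE than in E cells, and 1 was called higher in both. That gene was Snai1, which encodes Snail, at 8.79 and 5.48 ppm in E, 21.2 and 19.3 ppm in M, and 18.7 and 20.1 ppm in RE cells. Its log2 fold changes were 1.82 ± 0.22 and 1.55 ± 0.22 (SE, limma adjusted p = 0.000754 and 0.00305), and it did not reach 3 times the higher E value.

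The cell surface was represented by receptors and adhesion proteins. Pdgfrb, the receptor tyrosine kinase for platelet-derived growth factor B and a marker of fibroblasts and pericytes, was at 72.6 and 102 ppm in E cells, 399 and 372 ppm in M cells, and 827 and 710 ppm in RE cells. With RE/M of 2.00 it had the highest ratio of the 46 genes and lay just inside the upper bound. Pdgfra, its paralog, was not among them, at 21.6 and 18.7, 26.0 and 30.1, and 94.0 and 78.5 ppm. Its log2 fold change was 0.77 between E and M cells, under the threshold, and 2.17 ± 0.15 (SE, limma) between E and RE cells. Both receptor genes were highest in RE cells, and Pdgfrb, unlike Pdgfra, was called higher in M than in E cells; the difference between the paralogs was not tested. Plxnd1, a receptor for class 3 semaphorins, was at 14.7 and 15.9, 128 and 133, and 114 and 111 ppm. Cd200, a membrane glycoprotein that restrains myeloid cells through its receptor, was at 24.4 and 18.4 ppm in E, 155 and 155 ppm in M, and 207 and 159 ppm in RE cells. Lpar1, a G protein-coupled receptor for lysophosphatidic acid, was at 9.24 and 10.8, 35.9 and 36.9, and 44.7 and 50.5 ppm. The RE values of Cd200 and Lpar1 were above both of their M values on library totals, for Cd200 not after the other scalings. Il1rap, a coreceptor for interleukin-1, was at 7.86 and 9.75, 39.1 and 38.7, and 38.3 and 34.5 ppm. Npr2, the guanylyl cyclase receptor for C-type natriuretic peptide, was at 3.45 and 3.82, 16.8 and 14.7, and 16.7 and 12.8 ppm. Dsg3, a desmosomal cadherin of stratified epithelia, known as an epithelial gene, was at 0.325 and 0.503, 4.65 and 6.70, and 6.68 and 5.62 ppm.

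Genes of the cytoskeleton, polarity and small GTPase control came next. Insc, an adaptor that links cell polarity to spindle orientation, had a step that reached 71.8-fold from E to M means, and only Adamts12, for which the fold is a lower bound, could exceed it. It was at 0.124 and 0.140 ppm in E cells, close to the floor of 0.0776 and 0.0838 ppm there, 8.53 and 10.4 ppm in M cells, and 6.73 and 6.69 ppm in RE cells. RE cells were below M cells in both libraries and still at least 47.9 times the higher E value. Kif26b, an atypical kinesin, was at 3.02 and 3.15, 23.4 and 33.6, and 27.4 and 28.3 ppm. D230039L06Rik, a symbol that RefSeq gives as a synonym of Kif26b and whose coverage may not be separate from it, was at 0.189 and 0.551, 3.32 and 4.65, and 3.88 and 4.40 ppm. Sh3kbp1, an adaptor in receptor endocytosis, was at 2.51 and 3.81, 33.1 and 30.4, and 43.2 and 46.5 ppm, higher after removal in both libraries. Regulators of small GTPases were present as well. Prex1, an exchange factor for Rac, was at 1.74 and 1.56, 7.78 and 8.79, and 7.39 and 6.98 ppm. Cdgap, named Arhgap31 in RefSeq and a GTPase-activating protein for Rac and Cdc42, was at 8.90 and 11.5, 56.3 and 61.2, and 44.6 and 40.2 ppm. Plekhg1, a guanine nucleotide exchange factor, was at 1.60 and 3.09, 9.55 and 13.6, and 21.6 and 17.99 ppm. Cdgap and Prex1 were lower in RE than in M cells in both libraries, and Plekhg1 was higher.

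The remaining genes had no common role. Fam5c, named Brinp3 in RefSeq, had the second highest level per kilobase, 165 ppm against 313 ppm for Postn, and was at 159 and 104 ppm in E, 613 and 679 ppm in M, and 666 and 698 ppm in RE cells. Bahcc1, which encodes a chromatin protein with a bromo-adjacent homology domain, was at 1.23 and 1.74, 29.5 and 34.8, and 25.1 and 31.5 ppm. C1qtnf6, a secreted relative of complement C1q, was at 1.07 and 1.04, 9.21 and 8.0, and 9.32 and 10.2 ppm. M and RE values overlapped for Fam5c and Bahcc1, and C1qtnf6 was slightly higher in RE cells in both libraries on library totals but not after the other scalings. Acpp, an acid phosphatase, was at 10.8 and 14.6, 68.8 and 79.8, and 62.7 and 51.1 ppm, and Cabyr, a calcium-binding protein known from sperm, was at 1.70 and 1.26, 7.95 and 11.2, and 6.62 and 5.89 ppm. The other genes were Sytl2, Hr, Ankrd44, E030049G20Rik (Nckap5 in RefSeq), 1700019G06Rik, Ggt5, Sec16b, Tmprss6, Nebl and Dnm1. They ranged from 0.136 to 15.2 ppm in E cells, from 1.38 to 72.0 ppm in M cells and from 1.92 to 63.9 ppm in RE cells, with Dnm1 the lowest and Sytl2 the highest in each state.

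Some of the 46 genes were lower and some higher in RE than in M cells, and the split depended on the scale. The median RE/M was 0.97 on library totals, with 21 genes above 1 and 25 below. The median of all tested genes on that scale was shifted by 0.18 (log2) between M and RE cells, by -0.30 between E and M cells and by -0.10 between E and RE cells. After TMM normalisation, which removes the shift, the median RE/M was 0.84 and 10 of the 46 genes were above 1, and with median-of-ratios factors it was 0.85 with 11 above 1. On library totals, both RE libraries were above both M libraries for 13 genes, where 52.3% of tested genes were, and below them for 18 genes, where 27.1% of tested genes were. The values of the other 15 genes overlapped. After TMM normalisation the counts were 9 above and 25 below, and with median-of-ratios factors 9 and 23. For these scalings no share over all tested genes is given, so nothing is read from the counts. The same holds for the counts of genes with RE/M above 1. The 9 genes above on all scales were Pdgfrb, Col12a1, Plekhg1, Vcan, Sec16b, Sh3kbp1, Col3a1, Lpar1 and Dnm1. The genes with the highest RE/M on totals, among those with at least 5 ppm in every M and RE library, were Pdgfrb, Col12a1, Plekhg1, Sh3kbp1 and Lpar1, and those with the lowest were Col1a1, Postn, Cabyr, Adamtsl3 and Zeb2. Because the rule bounded RE/M, these are descriptions.

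**Figure D3:**
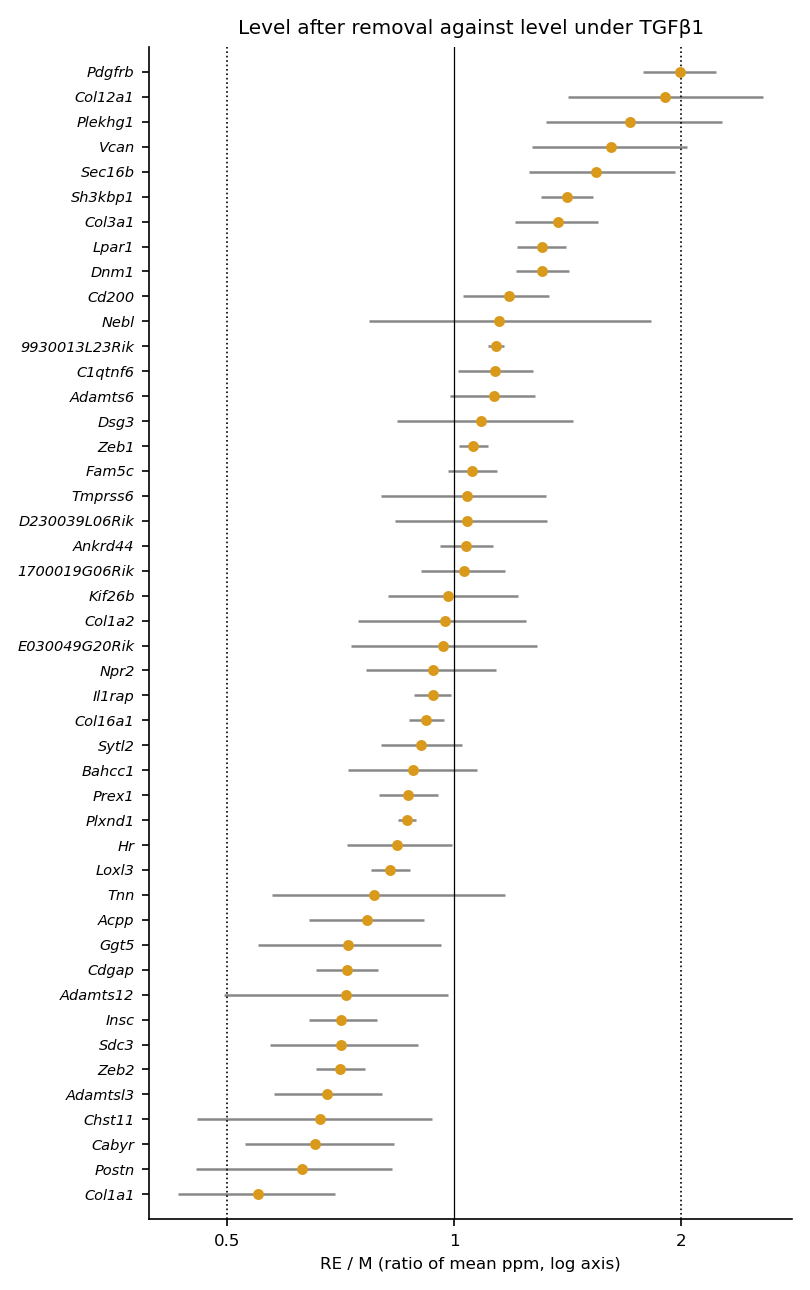
Ratio of the RE mean to the M mean for each of the 46 genes on library totals (log axis); the point is the ratio of means, the line runs from the lower RE over the higher M value to the higher RE over the lower M value, and dotted lines mark the bounds of 0.5 and 2. Ratios run from 0.55 for Col1a1 to 2.00 for Pdgfrb, with a median of 0.97.

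Genes near the bounds show how narrow the choice was. At the bound of 3 times the higher E value, Vcan (3.05) and Plekhg1 (3.09) were just inside, and Abcc5 (2.99) and Chi3l1 (2.91) just outside. At 1 ppm, Chst11 (1.07 ppm) and Dnm1 (1.38 ppm) were inside, and Ace (0.949 ppm) and Dmp1 (0.729 ppm) outside. At the lower bound of RE/M, Col1a1 (0.55) and Postn (0.63) were inside, and Pde2a and Serpinf1 (both 0.46) outside. With TMM or median-of-ratios scaling, 1 of the 46 genes, Col1a1, fell below the lower bound of RE/M. At the upper bound, Pdgfrb (2.00) and Col12a1 (1.90) were inside, and Dclk1 (2.34) and Megf10 (3.01) outside.

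The list of TGFβ pathway genes (ligands, receptors, latent binding proteins, some integrin subunits, Smads and other regulators) held 0 of the 46 genes. Of its 29 genes tested, 11 were called higher and 2 lower in M than in E cells, 8 higher and 0 lower in RE than in E cells, and 4 higher in both. Tgfb2, a ligand, was one of these, at 15.8 and 16.6 ppm in E, 37.4 and 37.4 ppm in M, and 44.6 and 39.2 ppm in RE cells, with log2 fold changes of 1.498 and 1.45. Pmepa1, a feedback inhibitor of Smad signalling, returned, at 199 and 235, 482 and 494, and 166 and 181 ppm. Among genes known to respond to TGFβ, Col1a1, Col1a2, Col3a1 and Postn stayed high, and of the 35 others tested 20 were called higher and 2 lower in M than in E cells, 8 higher and 3 lower in RE than in E cells, 7 higher and 20 lower in RE than in M cells, and 3 higher in both. Ctgf, a matricellular protein, was at 169 and 216, 689 and 671, and 66.2 and 65.0 ppm. Acta2, smooth muscle actin, was at 0.282 and 0.730, 65.8 and 75.2, and 4.13 and 3.95 ppm, still above E but far below M cells. Of the 39 gene lists, 13 held at least 1 of the 46 genes, and 27 of the 46 genes were in no list. Over the 1514 other tested genes of all lists, 277 were called higher and 196 lower in M than in E cells, 200 higher and 84 lower in RE than in E cells, and 76 higher in both. The balance of directions depended on the scaling, and the counts of each list are after TMM normalisation. On library totals, 227 list genes were called higher and 256 lower in M than in E cells. Between E and RE cells, 173 were higher and 97 lower in RE cells on that scale. The calls between E and RE cells depended on single libraries. Refitting without a library changed the number of list genes called between them in either direction from 284 to 3 without the first RE library, to 17 without the second RE library, to 157 without the first or the second M library, and to 430 without the second E library. Between E and M cells the number went from 473 to 229 without the first M library and to 229 without the second. Between M and RE cells it went from 434 to 208 and 218 without the first and second M library, and to 198 and 228 without the first and second RE library.

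In the gene order of the mouse genome (RefSeq, GRCm38.p6), 45 of the 46 symbols were placed, at 44 loci, since Kif26b and D230039L06Rik share 1. None of these loci was next to another, and some direct neighbours had a different course. The neighbours described here were all picked after their values were seen. Csf1r, the receptor for colony stimulating factor 1, lies next to Pdgfrb and was at 1.73 and 1.37 ppm in E, 22.5 and 27.2 ppm in M, and 2.12 and 1.49 ppm in RE cells, a log2 fold change between M and RE cells of -3.93. Il2rb, an interleukin-2 receptor chain, lies between Tmprss6 and C1qtnf6 and was at the floor in both E libraries, 12.8 and 12.7 ppm in M, and 0.602 and 0.763 ppm in RE cells. Col5a2, a chain of type V collagen, lies next to Col3a1 and was at 1.01 and 1.09, 5.01 and 6.90, and 0.589 and 1.38 ppm. These 3 genes rose with TGFβ1 beside genes that stayed high and then fell. Cd109, next to Col12a1, stayed high as well, at 80.5 and 67.7, 266 and 230, and 233.7 and 222 ppm. Its log2 fold changes over E were 2.04 in M and 1.71 in RE cells (limma), although its second M value and both RE values were under 3 times the higher E value. Other neighbours, such as Plxdc2 next to Nebl and Slc41a2 next to Chst11, were above E in both states too. No count was made over all neighbours, so the genes described do not show how often a neighbour fell or stayed high.

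**Figure D4:**
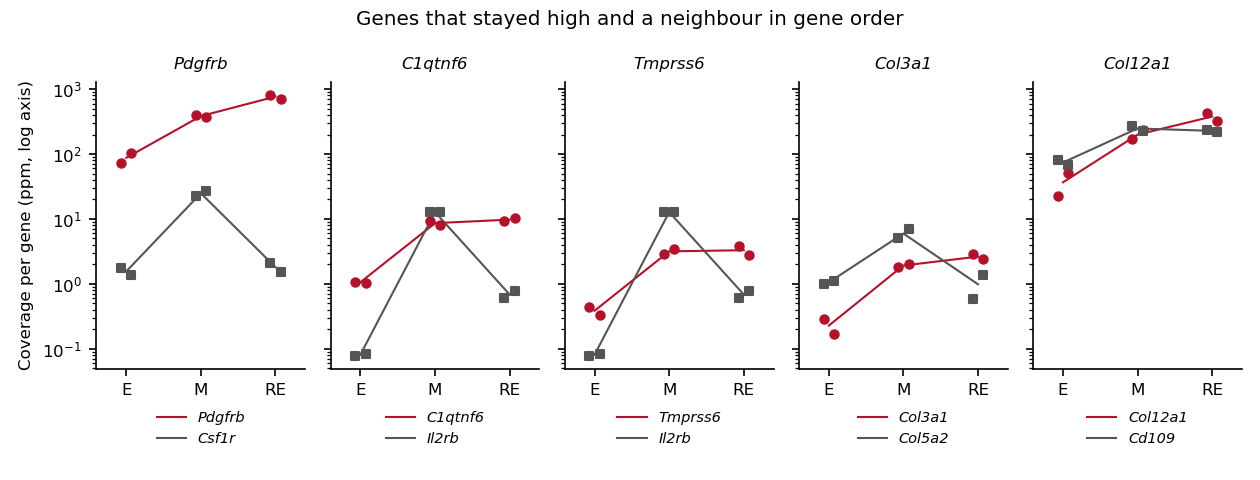
Coverage (ppm, log axis) of 5 genes that stayed high (red circles) and of a neighbour of each in gene order (grey squares) in the 2 libraries each of E, M and RE cells, with lines through the means and values under 3 reads' worth drawn at that floor. Csf1r, Il2rb and Col5a2 drop between M and RE while Pdgfrb, C1qtnf6, Tmprss6 and Col3a1 do not, and Cd109 stays high with Col12a1.

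Markers of cell types were summed to check the label of the cells and the presence of others. The summed level of 9 epithelial markers was 2548 and 2259 ppm in E, 1279 and 1370 ppm in M, and 1111 and 1162 ppm in RE cells. Cdh1 was between 213 and 351 ppm in every library, and Krt19 was at or near the floor. Epcam, Cldn3, Cldn7 and Esrp1 were called lower than E by limma in both M and RE cells. Grhl2 was called lower in M cells only and Krt18 in RE cells only, and Cdh1 and Krt8 were not called against E. Of 8 fibroblast markers, 7 were in the table. Pdgfrb, Col1a1 and Col1a2 are among them and among the 46 genes. The other 4 summed to 22.2 and 19.1 ppm in E, 26.1 and 30.2 ppm in M, and 97.9 and 80.3 ppm in RE cells, nearly all of it from Pdgfra, and Thy1 and Fap were at or under the floor in every library. Of 7 immune markers, 3 were at or under the floor in every library, Ptprc and Cd3e among them, and the sum of all 7 ranged from 7.64 to 33.7 ppm, highest in M cells, where Csf1r made up most of it. Of 6 endothelial markers, Kdr and Tie1 were at or under the floor. The sum of all 6 ranged from 0.397 to 2.55 ppm, also highest in M cells, where Cdh5 made up most of it. Summed myoepithelial markers ranged from 329 to 812 ppm, most of it from Krt14, while Acta2 was highest in M cells and Trp63 in RE cells. Summed adipocyte markers ranged from 0.0488 to 10.2 ppm, and 4 of the 5, all but Fabp4, were at or under the floor in every library. The part of such cells in the levels of the 46 genes was not tested. In these bulk libraries, more cells that express a gene and more RNA per cell cannot be told apart.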

How the data were processed

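RNA from 2 biological replicates each of E, M and RE cells of the EpH4 line was sequenced. The authors aligned reads to NCBI-m37 with Bowtie and TopHat2 (edgeR is also named in the submitters' processing notes), and deposited 1 table of whole numbers per gene. The deposited values were handled as coverage (signal) (bases that the authors totalled for each gene) rather than counts of reads, because they are too large for reads and 44.8% to 48.4% of values from 1 to 400 are multiples of 50. No source used here states this, and the floor and reads' worth rest on it. The summing step and annotation are not given in the sources used here, so overlapping genes may share coverage. Libraries held 35782513 to 47928557 reads' worth of 50 bases. The floor was 3 reads' worth (150 bases) per library and covers counting error only.

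The genes were chosen on ppm values relative to each library's total. Genes that reached 500 bases in 2 or more libraries entered limma 3.58.1 (R 4.3.3) on log2(TMM ppm + 0.1), where TMM was computed without weights, with all 6 libraries in 1 fit, a trend and Benjamini-Hochberg adjustment. Such fold changes understate the change of low genes. edgeR, named in the design, needs counts and was not run. The fit was tested on simulated data.

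The 46 genes and the 39 lists were chosen with earlier results of these data known. Named genes were the 12 with the largest lowest-value ratio to E and the 5 highest and 5 lowest RE/M at 5 ppm or more, the 10 highest per kilobase, 2 on each side of each bound, those in a list, and up to 3 called genes per list and comparison; other names were added after values were seen. Lengths came from GENCODE M21 and promoters from RefSeq. Some items are not reported here.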

Additional observations from a re-analysis of the deposited data

How the results depend on the processing

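The number of genes chosen was 46, or 0.264% of the table. It stayed within 1.5 times of that with TMM or median-of-ratios scaling (55 and 57 genes, 45 shared in each, with only Col1a1 lost), with levels of 0.5 or 5 ppm, and with RE/M from 0.67 to 1.5. At 2 times the E value it was 0.769% (88 more genes), at 5 times 0.109% (19 genes), and 1.57% (273 genes) when limma calls replaced the rule, an alternative chosen after seeing the data that shared 45 genes. Leaving out 1 library gave 45 to 116 genes (0.258% to 0.666%), the most without the second E library. A lone library left in a group is assumed to vary like the others. Leaving out 1 library gave 229 to 598 list genes called between E and M cells, 3 to 430 between E and RE cells, and 198 to 543 between M and RE cells, and 919 to 3320, 9 to 2309 and 628 to 2304 of all genes. With only E and RE cells in the fit, 130 list genes and 462 of all genes were called between them, against 284 and 1262. With library totals in place of TMM, 802 of all genes were called higher and 1829 lower in M than in E cells, against 1169 and 1160. The causes were not tested. Of 43 calls on the 18 other genes named, 14 were between E and RE cells, and 14 and 13 of these were lost without the first and second RE library; 0 reversed in any alternative.

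Same-numbered libraries of E and M cells had deviations that correlated at 0.27, those of E and RE cells at 0.06, and those of M and RE cells at 0.12, so the numbers are not taken to pair the libraries. With the replicate number as a block, 482, 279 and 439 list genes and 2389, 1212 and 1793 of all genes were called, and 0 of the 43 calls were lost. The calls given above for Epcam, Cldn3, Cldn7, Esrp1, Grhl2 and Krt18 are not among the 43 and were not checked in this way. Protein sequences were not analysed here. Precision rests on 2 libraries per group.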
